A study of Mus musculus with 27 samples.

Results

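A set of 6 T-box transcription factors that pattern the mouse heart, Tbx1, Tbx2, Tbx3, Tbx5, Tbx18 and Tbx20, was followed through every library of a study of Hand2os1 (Hand2as, Uph). That gene makes a long non-coding RNA and lies beside Hand2, which encodes a heart transcription factor. The members were taken by gene symbol: 6 of the 24025 genes in the bulk table and 6 of the 19010 symbols in the single-cell table. All animals were C57BL/6 mice, and the study asked which heart transcripts differ between controls and homozygous mutants. Allele F removes the full length of Hand2os1 and allele D removes its distal 3′ portion. Bulk RNA came from embryonic hearts at E11.5 (3 F/+ and 3 F/F), from ventricles at E16.5 (3 F/+ and 3 F/F), and from cardiomyocytes of 8-week-old mice (5 +/+, 2 D/+ and 6 D/D). The embryonic controls thus all carry 1 copy of the F deletion, and the 8-week control group of 7 joins +/+ and D/+. A pair of droplet single-cell libraries came from E11.5 hearts, 1 labelled +/+ and 1 labelled F/F, each a pool of living cells from 6 hearts. With 1 library per genotype, the single-cell libraries give no test between genotypes. The labels do not say whether the bulk replicates were separate animals, so p-values measure only the spread between these samples.

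T-box proteins bind DNA through a shared domain, the T-box, and either raise or lower transcription of the same kind of target. Tbx5 and Tbx20 act with Nkx2-5 and Gata4 on genes of the working chamber muscle such as Nppa, which encodes atrial natriuretic peptide, and Gja5, which encodes connexin 40. Tbx2 and Tbx3 are repressors that hold such genes low in the atrioventricular canal, outflow tract and pacemaker tissue, and BMP signalling is a known inducer of Tbx2. Tbx18 is known for the epicardium and the sinus venosus, Tbx1 for the pharyngeal mesoderm that supplies the outflow tract, and Tbx20 also for endocardium and valve mesenchyme.

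In the GENCODE annotation of GRCm38, the assembly also called mm10, which the submitters' processing notes name for the single-cell libraries, Tbx3 (ENSMUSG00000018604.18; chr5:119670669-119684724, plus strand) and Tbx5 (ENSMUSG00000018263.11; chr5:119832668-119885219, plus strand) are next to each other with no coding gene between them. Tbx2 (ENSMUSG00000000093.6) spans chr11:85832551-85841948 on the plus strand, with Tbx4 further along the same chromosome at chr11:85886422-85916097. Tbx1 (ENSMUSG00000009097.10) spans chr16:18580979-18590671, Tbx18 (ENSMUSG00000032419.8) chr9:87702800-87731260 and Tbx20 (ENSMUSG00000031965.15) chr9:24718138-24774303, all on the minus strand. An antisense gene, Tbx3os1, overlaps Tbx3. The submitters' processing notes name mm9 for the bulk libraries, and these positions are not on that build. The sequence shown is the RefSeq promoter of Nppa on GRCm38.p6 (chr4:148000472-148000721, plus strand, the 250 bases before its start), because Nppa is the textbook target on which T-box activators and repressors meet and its level is followed below. Capitals mark TCACACCT at -250 to -243, which is the reverse complement of the T-box site AGGTGTGA, and AAGTG at -239 to -235 and again at -65 to -61, a core that NKX factors bind.
Nppa: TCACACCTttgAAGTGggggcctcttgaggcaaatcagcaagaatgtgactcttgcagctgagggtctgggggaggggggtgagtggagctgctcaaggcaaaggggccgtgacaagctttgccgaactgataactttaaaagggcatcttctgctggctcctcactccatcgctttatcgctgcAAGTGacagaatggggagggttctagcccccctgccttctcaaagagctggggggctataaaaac
AGGTGTGA was searched on both strands in 32851 mouse promoters of 250 bases before to 50 bases after the start and was present in 368 of them (1.12%). Its shorter core AGGTGT, which lies within it, was in 11.8% and AAGTG in 40.7%, so the short letters alone single out little. Of 14 chamber genes, 12 had a promoter in the table (14 promoters), and Nppa was the 1 gene among them with the full site. Promoters were found for 3 of the 6 members (4 promoters), and none held the full site in this window.

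Depth and labels set the limits of what follows. The bulk values are FPKM, a level per transcript length and per library, and their read depth is unknown. The single-cell libraries held 2563 and 3469 barcodes (5000 had been aimed at) with 38302758 and 51432290 UMIs (molecules counted by a barcode of their own), and 18 barcodes occurred in both. After filters on genes and doublets 2503 and 3368 cells remained, with a median of 13307 and 13348 UMIs per cell. The targeted gene, Hand2os1, was listed at 0 in all 6 E11.5 bulk libraries and so checks no label there. At E16.5 it was 0.81, 0.37 and 1.40 FPKM in F/+ and 0 in all 3 F/F libraries. At 8 weeks it ranged from 6.90 to 13.5 FPKM in 4 of 5 +/+ libraries, was listed at 0 in the library labelled +/+ replicate 5, against its label, and ranged from 0 to 2.67 FPKM in D/D. In the single cells the library labelled +/+ had 1 UMI of it (95% exact Poisson interval 0.0253 to 5.57) and the one labelled F/F had 9 (4.12 to 17.1), which goes against the labels, so those libraries are named by their labels throughout. Cardiomyocyte markers were abundant in every bulk library (summed level of 11 genes at least 9048 FPKM).

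Tbx20 had the highest mean FPKM of the 6 in the control samples of every stage, and its course over the stages differed from that of the others. In control hearts at E11.5 it stood at 61.8, 73.4 and 54.0 FPKM, in control ventricles at E16.5 at 120.7, 110.7 and 103.8 FPKM, and in the 7 control samples of 8-week cardiomyocytes between 14.2 and 23.8 FPKM (median 20.9). All E16.5 values lay above all E11.5 values, and all 8-week values lay below both. Such a lack of overlap was common. It held for 60% of 11405 genes between E11.5 and E16.5 and for 64.1% of 10884 between E16.5 and 8 weeks. The log2 difference of Tbx20 was 0.82 (SE 0.14, limma adjusted p = 0.00176) from E11.5 to E16.5 and -2.49 (SE 0.17, limma adjusted p = 9.87e-08) from E16.5 to 8 weeks, on the log2(FPKM + 1) scale. Its mean exceeded that of 96.3% of all genes in E11.5 F/+, 98.2% in E16.5 F/+ and 89.4% in 8-week +/+ samples.

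Tbx5, the activator known for its dosage-sensitive role in septation and conduction, was next in order at E11.5. It stood at 35.3, 36.03 and 23.2 FPKM in E11.5 F/+ hearts and at 14.7, 16.7 and 16.9 FPKM in E16.5 F/+ ventricles, with no overlap. The fall was 0.91 on the log2 scale (difference -0.91, SE 0.19, limma adjusted p = 0.00444). In 8-week control cardiomyocytes it ranged from 14.6 to 20.2 FPKM (median 18.2), which overlapped E16.5 (difference 0.12, SE 0.12, limma adjusted p = 0.390). That last comparison depends on scaling, since the difference was 0.49 with an adjusted p of 0.00285 after median-ratio scaling and 0.45 (0.00474) after upper-quartile scaling, over a range of limma adjusted p from 0.00285 to 0.731 in all settings. At 8 weeks Tbx5 (17.6 ± 1.99 FPKM, SD, n = 7) and Tbx20 (19.3 ± 3.91 FPKM) did not differ beyond their spread, whereas in E16.5 F/+ ventricles Tbx20 (111.7 ± 8.47 FPKM, SD, n = 3) was far above Tbx5 (16.1 ± 1.22 FPKM).

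Tbx18, the epicardial and sinus venosus factor, fell at each step. It was 16.7, 22.2 and 27.6 FPKM in E11.5 F/+ hearts, 7.33, 9.34 and 8.35 FPKM in E16.5 F/+ ventricles and 0.46 to 1.01 FPKM in the 8-week controls (median 0.71). The groups did not overlap, and the log2 differences were -1.29 (SE 0.20, limma adjusted p = 0.00106) and -2.43 (SE 0.13, limma adjusted p = 1.42e-08). The summed level of 7 other epicardial markers moved the same way, from 213 to 353 FPKM in E11.5 F/+ to 55.3 to 65.7 FPKM at E16.5 and 3.66 to 15.5 FPKM at 8 weeks. In bulk samples, fewer cells of a type and less RNA per cell cannot be told apart. Stage, tissue and cell isolation also change together in this design and cannot be told apart.

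The repressors Tbx2 and Tbx3 were carried at E11.5 by a pair of F/+ libraries. Tbx2 was 18.8, 32.3 and 8.01 FPKM and Tbx3 13.9, 21.1 and 3.78 FPKM in E11.5 F/+ replicates 1, 2 and 3, so replicate 3 was the lowest for both. In E16.5 F/+ ventricles Tbx2 was 7.10, 7.00 and 5.58 FPKM and Tbx3 3.42, 4.59 and 4.37 FPKM. The log2 difference was -1.27 for Tbx2 (SE 0.41, limma adjusted p = 0.0312) and -1.19 for Tbx3 (SE 0.49, limma adjusted p = 0.0722), so the first passed the threshold and the second did not. Without F/+ replicates 1 and 2, which also hold transcripts of neighbouring tissue, the differences were -0.26 for Tbx2 (limma adjusted p = 0.283) and 0.09 for Tbx3 (0.714). The Tbx2 call was also lost without replicate 1 (adjusted p 0.0900), without replicate 2 (-0.83, 0.0753) and without any single E16.5 F/+ library (0.0642 to 0.0952). For Tbx3 it was gained without replicate 3 (-1.83, 0.000412), and the adjusted p ranged from 0.000207 to 0.283 for Tbx2 and from 0.000369 to 0.714 for Tbx3 over all settings. In 8-week controls Tbx2 ranged from 2.34 to 7.36 FPKM (median 3.91) and Tbx3 from 3.14 to 10.3 FPKM (median 5.45), and neither differed from E16.5 at the threshold (-0.47 with limma adjusted p = 0.111, and 0.31 with 0.325). The adjusted p of Tbx2 there ran from 0.00899 to 0.645 over all settings and passed the threshold in 3 of 18.

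Tbx1, the second heart field and pharyngeal factor, was the lowest of the 6 at E11.5, and it and Tbx18 were both at most 1.01 FPKM in every 8-week library. It stood at 1.32, 7.92 and 1.23 FPKM in E11.5 F/+ and at 0.26, 0.31 and 0.10 FPKM in E16.5 F/+ (difference -1.56, SE 0.51, limma adjusted p = 0.0336). Replicate 2 at E11.5 was high on its own, and without it Tbx1 fell under the level filter and was not tested. The call was also lost without any single E16.5 F/+ library (adjusted p 0.0726 to 0.0959). In 8-week controls it ranged from 0.10 to 0.78 FPKM and was under the level filter. Between E11.5 and E16.5, 1 of the 6 members was called higher and 4 lower. The 4 include Tbx1 and Tbx2, whose calls hang on single libraries. Of all 11405 genes 17.7% were called higher and 31% lower. Between E16.5 and 8 weeks, 0 were called higher and 2 lower of the 5 tested, where 27.4% of 10884 genes were called higher and 46.3% lower. Rescaling shifted the median gene by 0.20 and 0.34 (log2, median ratio) in these comparisons and moved the share of calls that were higher from 36.3% to 51.9% and from 37.2% to 51.9%, with the all-gene median at -0.18 and -0.31 before it.

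**Figure D1:**
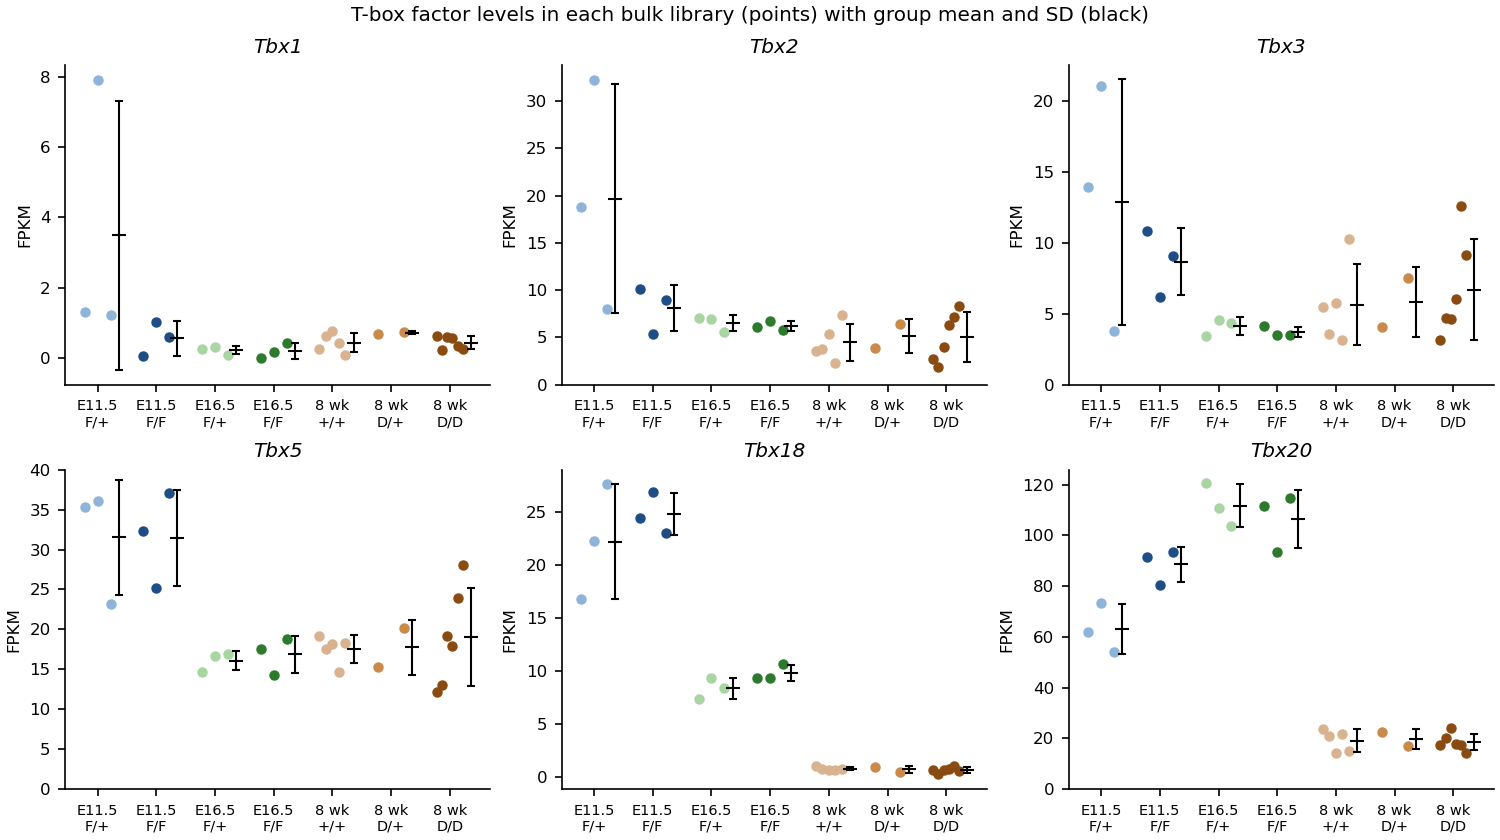
FPKM of each T-box factor in every bulk library, 1 panel per gene with its own axis, grouped by stage and genotype, with points for libraries and bars for the mean and SD. Tbx20 peaks at E16.5 (103.8 to 120.7 FPKM in F/+), Tbx18 declines from E11.5 to 8 weeks, and Tbx2 and Tbx3 spread most among the E11.5 F/+ libraries.

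The lists of genes that work with the T-box factors are read against all tested genes, of which 17.7% were higher and 31% lower at E16.5 than at E11.5. Of 14 BMP pathway genes, which include inducers of Tbx2, 12 fell from E11.5 to E16.5 and 0 rose (median -1.48, against -0.18 over all genes). Id2, a BMP-induced inhibitor of helix-loop-helix factors, fell by 2.18 (limma adjusted p = 2.81e-05), and Id1 fell by 0.86 (0.00111), whereas the ligand Bmp7 had a difference of -0.15 (0.524). Without E11.5 F/+ replicates 1 and 2 the count was 10 of 14. All 6 tested genes of the Tbx1 and second heart field list of 12 fell (median -1.87), with or without those libraries, among them the retinoic acid enzyme Aldh1a2, also an epicardial marker (-2.60, limma adjusted p = 6.74e-05) and the ligand Wnt5a (-1.07, 0.00600). Of 9 tested conduction and pacemaker genes 2 rose and 5 fell (median -1.13), with Popdc2 higher (0.71, limma adjusted p = 0.0136) and the calcium channel subunit Cacna2d2 lower (-2.44, 0.000398). Of 15 tested partner factors 2 rose and 8 fell (median -0.56): Gata6 rose by 0.50 (limma adjusted p = 0.00902), while Nkx2-5 (0.31, 0.162) and Gata4 (-0.27, 0.0833) did not pass the test. Without E11.5 F/+ replicates 1 and 2 the partner counts were 5 and 8, and after either rescaling 4 and 5.

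The chamber genes divided. From E11.5 to E16.5, 3 of 14 rose and 9 fell (median -0.51): the calcium pump gene Atp2a2 rose by 0.54 (limma adjusted p = 0.0122), and Nppa fell by 1.07 (0.00305) and the myosin gene Myh6 by 0.50 (0.0337). After either rescaling 4 rose and 6 fell, and without E11.5 F/+ replicates 1 and 2 4 rose and 5 fell. From E16.5 to 8-week cardiomyocytes 8 rose and 5 fell (median 1.52, against -0.31 over all genes), with Myh6 higher by 4.42 (limma adjusted p = 3.56e-10) and Atp2a2 by 3.05 (5.42e-09), while Nppa differed by -0.31 (0.655). Over the same step 0 of 13 partner factors rose and 8 fell, with Nkx2-5 at -0.54 (limma adjusted p = 0.0166), Gata4 at -0.26 (0.0507) and Hand2 at 0.02 (0.944). In the BMP list 0 of 11 rose and 6 fell, Smad6 among them (-1.19, limma adjusted p = 0.00201), while Id1 (0.08, 0.810) and Smad4 (0.29, 0.0623) did not pass; after either rescaling 2 rose and 4 fell. The 6 tested second heart field genes all fell, Wnt5a by 1.44 (limma adjusted p = 5.45e-06) and Foxc1 by 1.22 (1.24e-05). Of 6 conduction genes 1 rose, Popdc2 (0.59, limma adjusted p = 0.00172), and 4 fell, Id2 by 2.77 (6.31e-06) and the connexin 45 gene Gjc1 by 0.95 (0.00139). After either rescaling 2 conduction genes rose and 3 fell.

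The first genotype comparison sets E11.5 hearts without Hand2os1 (F/F) beside hearts with 1 copy (F/+), to see whether T-box levels differ. Tbx20 was 91.5, 80.5 and 93.6 FPKM in F/F against 61.8, 73.4 and 54.0 FPKM in F/+. All 3 F/F libraries lay above all 3 F/+ libraries. The log2 difference was 0.49 (SE 0.17, limma unadjusted p = 0.0134), but the limma adjusted p over 11491 genes was 0.999, and an exact permutation test, two-sided as all here, gave 0.1, the smallest that 3 against 3 can reach. Leaving out each library in turn gave 0.39 to 0.61, and the lowest adjusted p over all settings was 0.240. A limma adjusted p under 0.05 was reached by 0.0087% of genes (1 gene, not a T-box gene), an unadjusted one by 4.37%, and 9.23% of genes had groups that did not overlap. Of the 6 members, 3 had an unadjusted p under 0.05 (Tbx20, Tbx2 and Tbx1) and 2 had no overlap (Tbx20 and Tbx1).

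Tbx2 was 10.1, 5.39 and 8.94 FPKM in F/F hearts against 18.8, 32.3 and 8.01 FPKM in F/+ hearts. The lowest F/+ library lay among the F/F libraries, so the groups overlap. The log2 difference was -1.02 (SE 0.42, limma unadjusted p = 0.0347, adjusted p = 0.999, exact permutation p = 0.3), and it was -0.59 without F/+ replicate 2 and -0.02 without F/+ replicates 1 and 2. Tbx3 was 10.8, 6.16 and 9.07 FPKM in F/F against 13.9, 21.1 and 3.78 FPKM in F/+, with all F/F values inside the F/+ range (difference -0.29, SE 0.48, limma adjusted p = 0.999, exact permutation p = 0.8). Its direction turned to 0.17 without F/+ replicate 2 and to 0.99 without F/+ replicates 1 and 2 (limma adjusted p = 0.589, with 0.575 the lowest over all settings).

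Tbx1 was 0.05, 1.02 and 0.60 FPKM in F/F against 1.32, 7.92 and 1.23 FPKM in F/+. No F/F value reached the lowest F/+ value, although 2 of the 3 F/+ libraries lay near 1 FPKM. The log2 difference was -1.26 (SE 0.56, limma unadjusted p = 0.0491, adjusted p = 0.999, exact permutation p = 0.1), and -2.34 with a pseudocount of 0.1 in place of 1. Without F/+ replicate 2 Tbx1 fell under the level filter. Tbx18 was 24.4, 26.9 and 23.03 FPKM in F/F against 16.7, 22.2 and 27.6 FPKM in F/+ (0.18, SE 0.21, limma adjusted p = 0.999, exact permutation p = 0.5), and Tbx5 was 32.3, 25.1 and 37.1 against 35.3, 36.03 and 23.2 FPKM (0.01, SE 0.22, limma adjusted p = 0.999, exact permutation p = 1). Both sets of groups overlap.

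Foregut and lung markers, Tbx4 and Osr1 were higher in F/+ replicates 1 and 2 than in the other 4 libraries. They peaked in replicate 1, whereas Tbx2, Tbx3 and Tbx1 peaked in replicate 2. The somite and skeletal muscle list peaked in replicate 2 as well, with sums of 2.13, 10.3 and 1.36 FPKM in F/+ and 0.82, 2.44 and 0.23 FPKM in F/F. The summed level of 7 foregut and lung epithelium genes was 33.1, 11.2 and 2.09 FPKM in F/+ replicates 1, 2 and 3 and 0.04, 3.94 and 0.28 FPKM in F/F. In F/+ replicate 1 this included Nkx2-1 at 7.86 FPKM and Shh at 2.28 FPKM, and both were listed at 0 in all F/F libraries. Tbx4, a T-box gene known for lung and hindlimb mesenchyme, was 11.4, 1.33 and 0.59 FPKM in F/+ and 0.34, 0.30 and 0.04 FPKM in F/F (log2 difference -1.55, SE 0.67, limma unadjusted p = 0.0435, adjusted 0.999). Without F/+ replicates 1 and 2 Tbx4 fell under the level filter, so its test rests on those libraries. Osr1, a mesoderm gene of the second heart field list, was 29.1, 14.4 and 9.09 FPKM in F/+ and 5.03, 4.32 and 5.19 FPKM in F/F.
F/+ replicate 2 stood out instead for atrioventricular canal markers and for single sinus markers. Msx2 was 24.2 FPKM there and 4.45 to 11.97 FPKM in the other 5 libraries, and Shox2 was 16.4 against 5.20 to 13.2 FPKM. The summed level of the sinus venosus and pacemaker list was 433, 518 and 377 FPKM in F/+ and 535, 322 and 450 FPKM in F/F. Replicate 2 was thus not the highest for that list. The summed level of 5 atrioventricular canal genes was 46.8, 78.2 and 26.9 FPKM in F/+ and 60.7, 42.7 and 40.8 FPKM in F/F. Hepatocyte markers differed in another order, with sums of 209, 5.02 and 10.8 FPKM in F/+, 15.3 and 43.6 FPKM in F/F replicates 1 and 3, and the highest of the 6 in F/F replicate 2, and the haemoglobin share of all FPKM ran from 10.4% to 29.7%. The part of these tissues in the T-box values was not tested. For Tbx20 the difference was 0.70 without F/+ replicates 1 and 2, larger than with them.

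**Figure D2:**
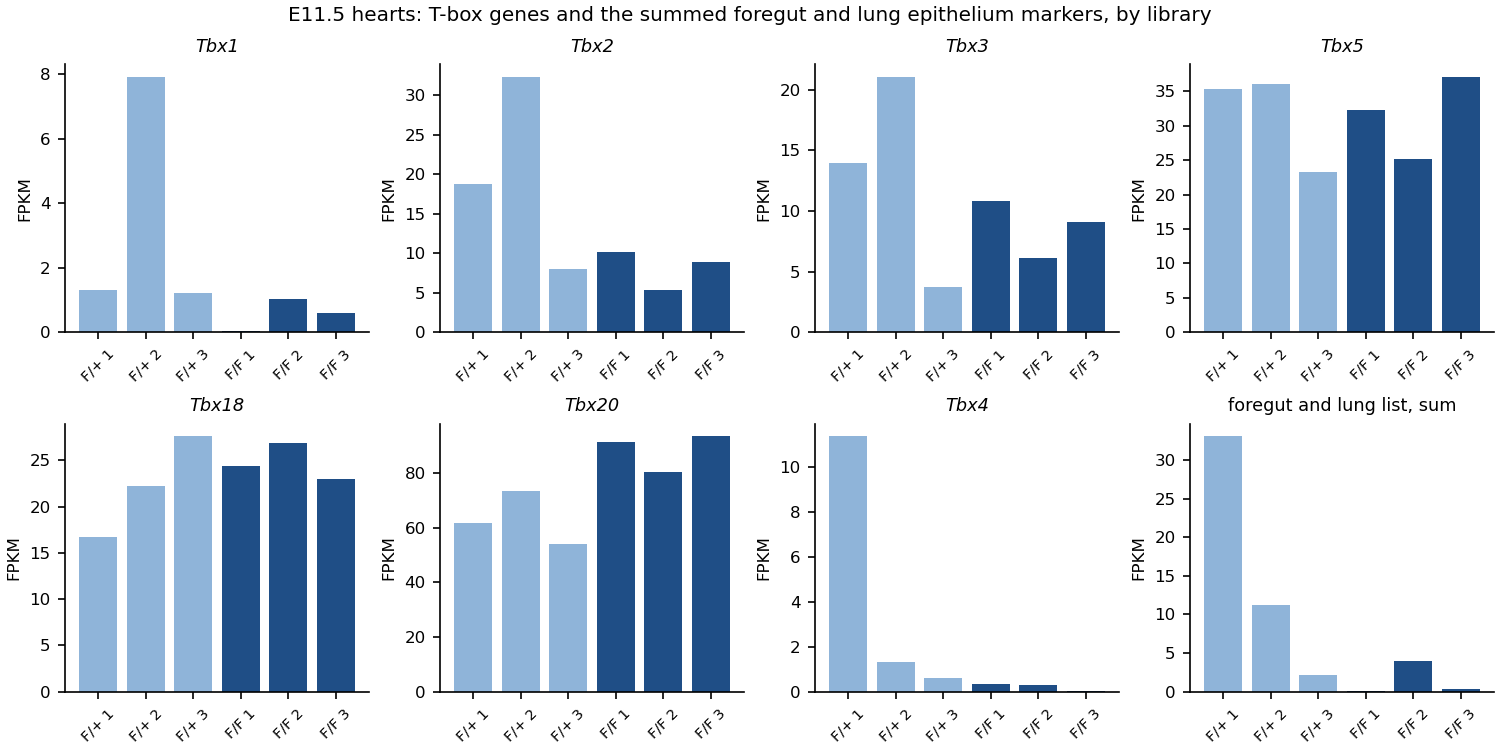
FPKM of T-box factors beside markers of neighbouring tissue in the 6 E11.5 bulk libraries, 1 bar per library, F/+ replicates 1 to 3 and F/F replicates 1 to 3. Tbx2 and Tbx3 are highest in F/+ replicate 2, Tbx4 and the foregut list are highest in F/+ replicate 1, and Tbx20 is higher in all F/F than in all F/+ libraries.

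In E16.5 ventricles F/F and F/+ were close for every member. Tbx20 was 111.4, 93.4 and 114.6 FPKM in F/F and 120.7, 110.7 and 103.8 FPKM in F/+ (log2 difference -0.07, SE 0.10). Tbx5 was 17.5, 14.2 and 18.8 against 14.7, 16.7 and 16.9 FPKM (0.06, SE 0.12), and Tbx18 was 9.35, 9.27 and 10.6 against 7.33, 9.34 and 8.35 FPKM (0.21, SE 0.12). Tbx2 ranged from 5.74 to 6.72 FPKM in F/F and from 5.58 to 7.10 FPKM in F/+ (-0.07, SE 0.13), and Tbx3 from 3.50 to 4.14 and from 3.42 to 4.59 FPKM (-0.11, SE 0.14). The groups overlap for all 5, the limma adjusted p was above 0.99 for each, and the exact permutation p ran from 0.2 for Tbx18 to 0.7 for Tbx20. Tbx1 was at most 0.44 FPKM and was not tested. Of all genes 0.00935% passed an adjusted p of 0.05, 2.63% an unadjusted one, and 6.78% had groups that did not overlap, against 0 of 5 members for each.

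The difference between the effects at E11.5 and E16.5 was tested itself. For Tbx20 the effect of F/F at E16.5 minus that at E11.5 was -0.56 (SE 0.19, limma unadjusted p = 0.0112, adjusted p = 0.999), and for Tbx2 it was 0.96 (SE 0.51, unadjusted p = 0.0841, adjusted p = 0.999), or -0.05 without E11.5 F/+ replicates 1 and 2. Neither passed the threshold, as 0.00875% of 11423 genes did.

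In 8-week cardiomyocytes no member differed between D/D and control at the threshold. Tbx5 ranged from 12.2 to 28.1 FPKM in D/D (median 18.6) and from 14.6 to 20.2 FPKM in control (median 18.2; log2 difference 0.06, SE 0.18, exact permutation p = 0.752). Tbx20 ranged from 14.2 to 24.0 FPKM in D/D (median 17.6) and from 14.2 to 23.8 FPKM in control (-0.05, SE 0.15, exact permutation p = 0.721). The D/D values of Tbx5 reach past the control range on both sides, and those of Tbx20 cover nearly the same range as the controls.
Tbx2 ranged from 1.85 to 8.38 FPKM in D/D and from 2.34 to 7.36 FPKM in control (0.03, SE 0.29, exact permutation p = 0.929), and Tbx3 from 3.17 to 12.6 and from 3.14 to 10.3 FPKM (0.17, SE 0.29, exact permutation p = 0.590). No limma adjusted p of these 4 genes passed the threshold in any setting (lowest 0.909). Tbx18 was 0.20 to 1 FPKM in D/D and 0.46 to 1.01 FPKM in control (exact permutation p = 0.297), and Tbx1 was at most 0.78 FPKM in any of these libraries. Of 10249 genes 0% passed the adjusted threshold and 1.71% the unadjusted one, against 0 of 4 members for each. With +/+ alone as control the differences were 0.09 for Tbx2, 0.19 for Tbx3, 0.06 for Tbx5 and -0.04 for Tbx20, with 1.01% of genes under an unadjusted limma p of 0.05.

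Some 8-week libraries stood apart, among them those with the highest Tbx2, Tbx3 and Tbx5. Tbx3 was highest in D/D replicate 5 (12.6 FPKM), the library labelled +/+ replicate 5 (10.3 FPKM) and D/D replicate 6 (9.14 FPKM). The second is the library whose Hand2os1 level goes against its label, and it was kept as a control. That library and D/D replicate 6 formed a set of their own on the first principal component, and D/D replicate 5 had the highest endothelial marker sum (549 FPKM, against 113 to 386 FPKM in the other 12). Within the other 11 libraries Tbx3 differed by 0.21 and Tbx5 by -0.05 (log2, 5 D/D and 6 control). Atrial Sln, which encodes sarcolipin, was 210 FPKM in +/+ replicate 1 and 205 FPKM in D/D replicate 2 and at most 44.5 FPKM elsewhere, while Tbx5 in those libraries was 19.1 and 13.1 FPKM. The part of these markers in the T-box values was not tested.

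Partner and target lists gave 0 calls in any F/F or D/D comparison. At E11.5, 15 of 17 partner factors had a positive difference (median 0.26, against 0.02 over all genes, of which 52.4% were positive). After either rescaling the count was 13 of 17. Groups did not overlap for 9.23% of all genes in this comparison. Nkx2-5 differed by 0.38, Gata4 by 0.37 with no overlap and Hand2 by 0.03 (limma adjusted p = 0.999 each). The 14 chamber genes had 8 positive differences (median 0.11), with Nppa at 0.35, Atp2a2 at 0.14 and Myh6 at -0.07. The BMP list had 9 of 14 positive (median 0.04; Id2 0.10, Id1 0.03, and the inhibitor Smad6 0.42 with no overlap). The Tbx1 and second heart field list had 4 of 7 positive (median 0.04; Aldh1a2 -0.17, Foxc2 0.23), and the conduction list 8 of 11 (median 0.09; Popdc2 0.09, Cacna2d2 0.13). At E16.5 the list medians ran from -0.03 (partner factors) to 0.04 (conduction) and at 8 weeks from -0.05 (second heart field) to 0.12 (BMP), beside 0.0039 and -0.0079 over all genes.

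The single-cell libraries show which E11.5 heart cells hold each T-box transcript. Cells were grouped into 18 clusters without any T-box gene among the genes used, and clusters were named from marker lists that hold none. Levels are CPM, UMIs scaled to a common total per cluster, so they compare clusters for 1 gene, not 1 gene with another. Blood cells set the background: in the 955 and 1239 erythroid-like cells the 6 members stood at 0 to 3.48 CPM in the library labelled +/+ and at 0.0548 to 6.80 CPM in the library labelled F/F, the highest being Tbx20 in both.

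Tbx20 was the most widely held. In the library labelled +/+ it was 324 CPM in the cushion mesenchyme-like cluster 10, 322 in the endothelial- and endocardial-like cluster 2, 319 in the cushion mesenchyme-like cluster 3 and 311 in the outflow tract and atrioventricular canal cardiomyocyte-like cluster 12, and these 4 do not differ beyond their 95% Poisson intervals. The atrial and sinus venosus cardiomyocyte-like cluster 15 had 281 CPM (232 to 337), whose interval meets theirs. Below these came the unnamed cluster 13, led by Rgs5 and Eln (206 CPM), the ventricular cardiomyocyte-like clusters 6 (141) and 5, which is trabecular (129), the epicardial-like cluster 11 (46.3) and cluster 14 (43.4). Clusters 2 and 14, both endothelial- and endocardial-like, thus differed, with 322 CPM (291 to 357) in cluster 2, led by Stmn2, Klf2 and Nts, and 43.4 CPM (32.2 to 57.2) in cluster 14, led by Emcn, Tm4sf1 and Plvap.
The library labelled F/F had the same pair apart, at 239 CPM (217 to 261) and 49.7 CPM (39.0 to 62.4). After each cell was thinned to 5000 UMIs, 70.2% of cluster 2 cells and 14 of 70 cluster 14 cells held a Tbx20 UMI in the library labelled +/+ (83.5% and 36.1% unthinned), against 2.06% of erythroid-like cells.

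Tbx18 was concentrated in the epicardial-like cluster 11, at 437 CPM (411 to 465) in the +/+-labelled and 371 CPM (352 to 390) in the F/F-labelled library. There 87.1% of cells thinned to 5000 UMIs held a Tbx18 UMI (128 of 147; 98.6% unthinned), against 0.686% of erythroid-like cells. The next levels in the library labelled +/+ were 44.3 CPM in cluster 15 and 37.2 CPM in cluster 13, whose intervals overlap, and no UMI was seen in either endothelial- and endocardial-like cluster (upper 95% bounds 3.15 and 3.20 CPM). Within the epicardial-like cluster 224 of 391 thinned cells from both libraries held both Tbx18 and Wt1, another epicardial factor, close to the 227 that the product of their shares gives.
Tbx5 was highest in the atrial and sinus venosus cardiomyocyte-like cluster 15, at 170 CPM (132 to 215) and 119 CPM (97.3 to 143) in the +/+- and F/F-labelled libraries. The trabecular ventricular cluster 5 followed at 40.8 and 42.6 CPM, and the outflow and atrioventricular canal cluster 12 had 2.53 and 4.40 CPM. Cells with canal markers also lie in cluster 15, where a group of 33, described below, held 143 CPM of Tbx5. The low Tbx5 of cluster 12 thus does not hold for all canal-like cells.
Tbx3 was also highest among the heart muscle clusters in cluster 15, at 66.5 and 79.4 CPM. Of its UMIs in cluster 15, 73 lay in that group of 33 cells and 27 in the other 76 cells. Tbx2 in cluster 15 was 44.3 CPM in the library labelled +/+ and 19.6 CPM in the library labelled F/F, each resting on 18 UMIs. In clusters 12, 6 and 5 it was 22.8, 15.7 and 3.75 CPM in the former and 24.0, 21.7 and 5.67 CPM in the latter, so cluster 15 did not lead for Tbx2 in both libraries. Tbx3 stood at 74.9 CPM (48.0 to 112) in 13 hepatocyte-like cells, found only in the library labelled +/+, where Tbx20 and Tbx5 had no UMI.
Tbx1 was sparse, with 9 UMIs in the 1548 cells outside the erythroid-like clusters of the +/+-labelled library and 28 in the 2129 of the F/F-labelled one. Its highest level was 8.71 CPM (3.76 to 17.2) in cluster 13 of the library labelled F/F, against 1.03 CPM (0.0262 to 5.76) in the other library.

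**Figure D3:**
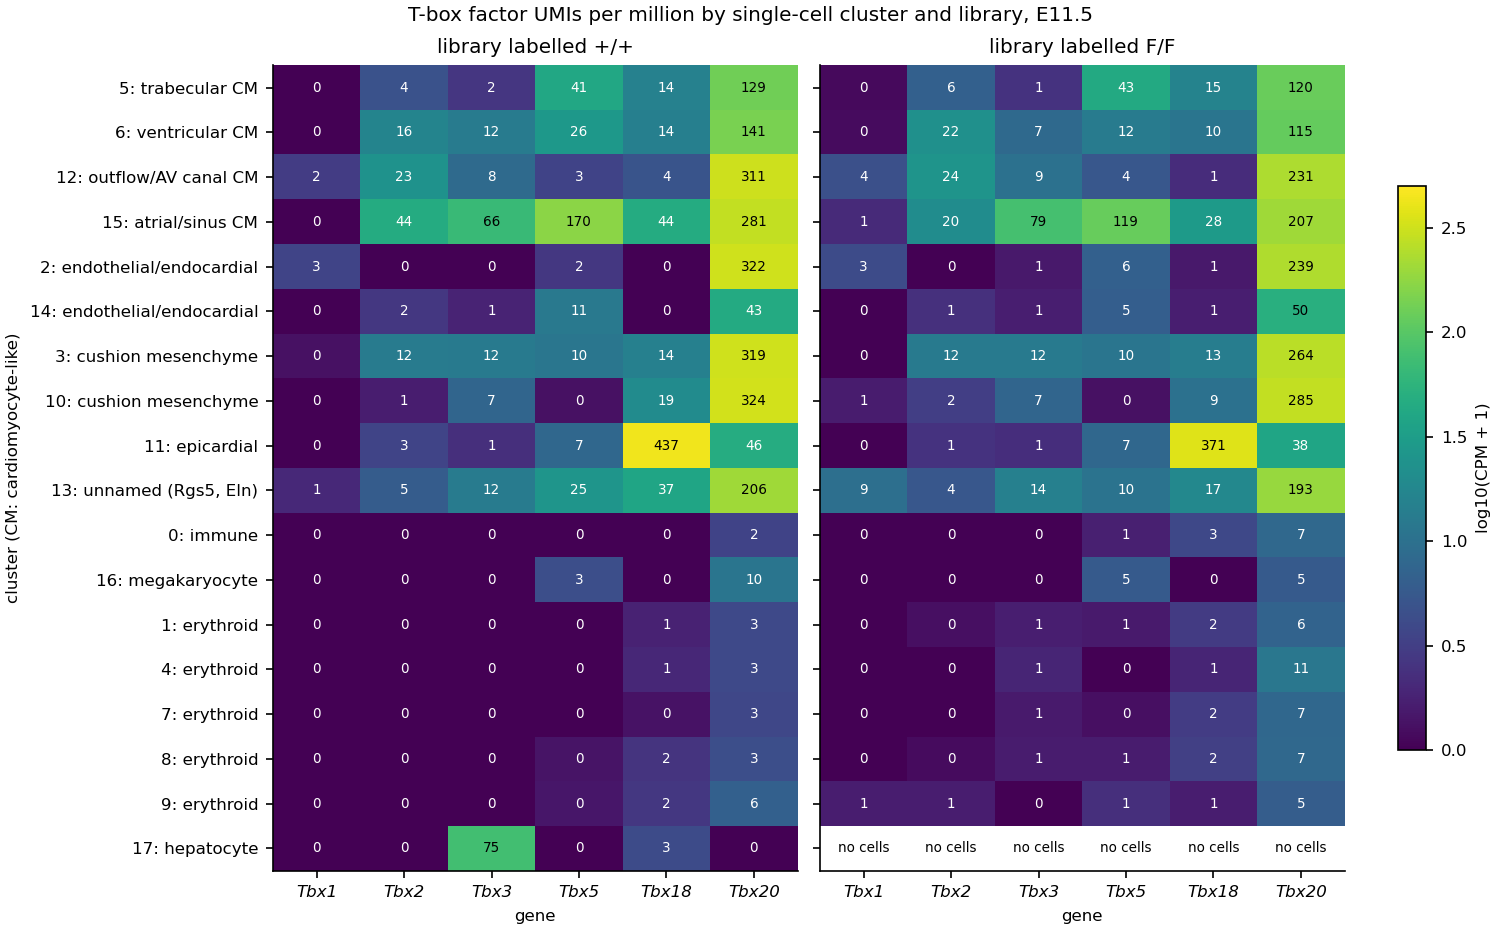
CPM of each T-box factor (columns) in each of the 18 clusters (rows) of the libraries labelled +/+ and F/F, with the CPM in each cell and colour on a log10(CPM + 1) scale, to be compared down a column. Tbx18 marks the epicardial-like row (437 and 371 CPM), and Tbx20 fills the muscle, mesenchyme and 1 of 2 endothelial rows. Tbx5 and Tbx3 peak among heart cells in the atrial and sinus row, which also holds cells with canal markers.

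A finer clustering, chosen after the data were seen, divided the atrial and sinus venosus cluster 15 into a pair with different T-box content. A group of 33 cells led by Bmp2, Cacna2d2 and Rspo3, which has atrioventricular canal and sinus markers among its leading genes, held 194 CPM of Tbx3 (152 to 244), 63.8 CPM of Tbx2 (40.9 to 94.9) and 143 CPM of Tbx5 (108 to 187), with no Tbx18 UMI (upper 95% bound 9.80 CPM). A group of 76 cells led by Shox2, Vsnl1 and Nr2f1, markers of the sinus venosus and atria, held 28.4 CPM of Tbx3 (18.7 to 41.4), 12.6 CPM of Tbx2 (6.53 to 22.1), 131 CPM of Tbx5 (109 to 156) and 46.3 CPM of Tbx18 (33.7 to 62.2). The intervals of Tbx2, Tbx3 and Tbx18 do not meet between these groups and those of Tbx5 do. The Tbx3 difference was present in each library, at 176 against 11.1 CPM (24 and 3 UMIs) in the library labelled +/+ and at 204 against 35.3 CPM in the library labelled F/F. Tbx3 is itself among the 10 leading genes of the smaller group, although it was not used to form it.

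Nppa, whose promoter is printed above, tended to be high where Tbx2 was low across the 9 groups. It did not follow Tbx2 or Tbx3 in a single order. Its background, in the erythroid-like cells, was 5.23 CPM in the library labelled +/+ and 13.4 CPM in the library labelled F/F. Nppa was 26.6 CPM in the Bmp2-led group and 9.32 CPM in the group led by Rspo3 and Bmp4 (262 cells; Tbx2 22.3, Tbx3 6.99 and Tbx5 1.81 CPM). The latter level lies within that background. In the group led by Cox6a2 and Atp1b1 (335 cells) Nppa was 32.8 CPM with Tbx2 at 26.5 CPM. It reached 4743 CPM in the trabecular group led by Nppa and Cited1 (175 cells), which held 4.85 CPM of Tbx2, 0.323 CPM of Tbx3 (1 UMI) and 66.6 CPM of Tbx5, and 714 CPM in the Shox2-led group beside 28.4 CPM of Tbx3. The groups led by Myh6 and Myh7 (102 cells) and by Myl2 and Smpx (106 cells) had 66.0 and 64.7 CPM of Nppa with 10.2 and 9.89 CPM of Tbx2. The groups led by Smpx and Cited1 (306 cells) and by Cck and Myoz2 (130 cells) had 374 and 680 CPM of Nppa. Their Tbx2 was 4.30 and 2.34 CPM. The Shox2-led group, with 12.6 CPM of Tbx2, broke the order most. Gja5 was 116 CPM in the trabecular group, 44.2 CPM in the Shox2-led group and 2.66 CPM (1 UMI) in the Bmp2-led group. An antisense gene, Gm13054, overlaps Nppa in the annotation.

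**Figure D4:**
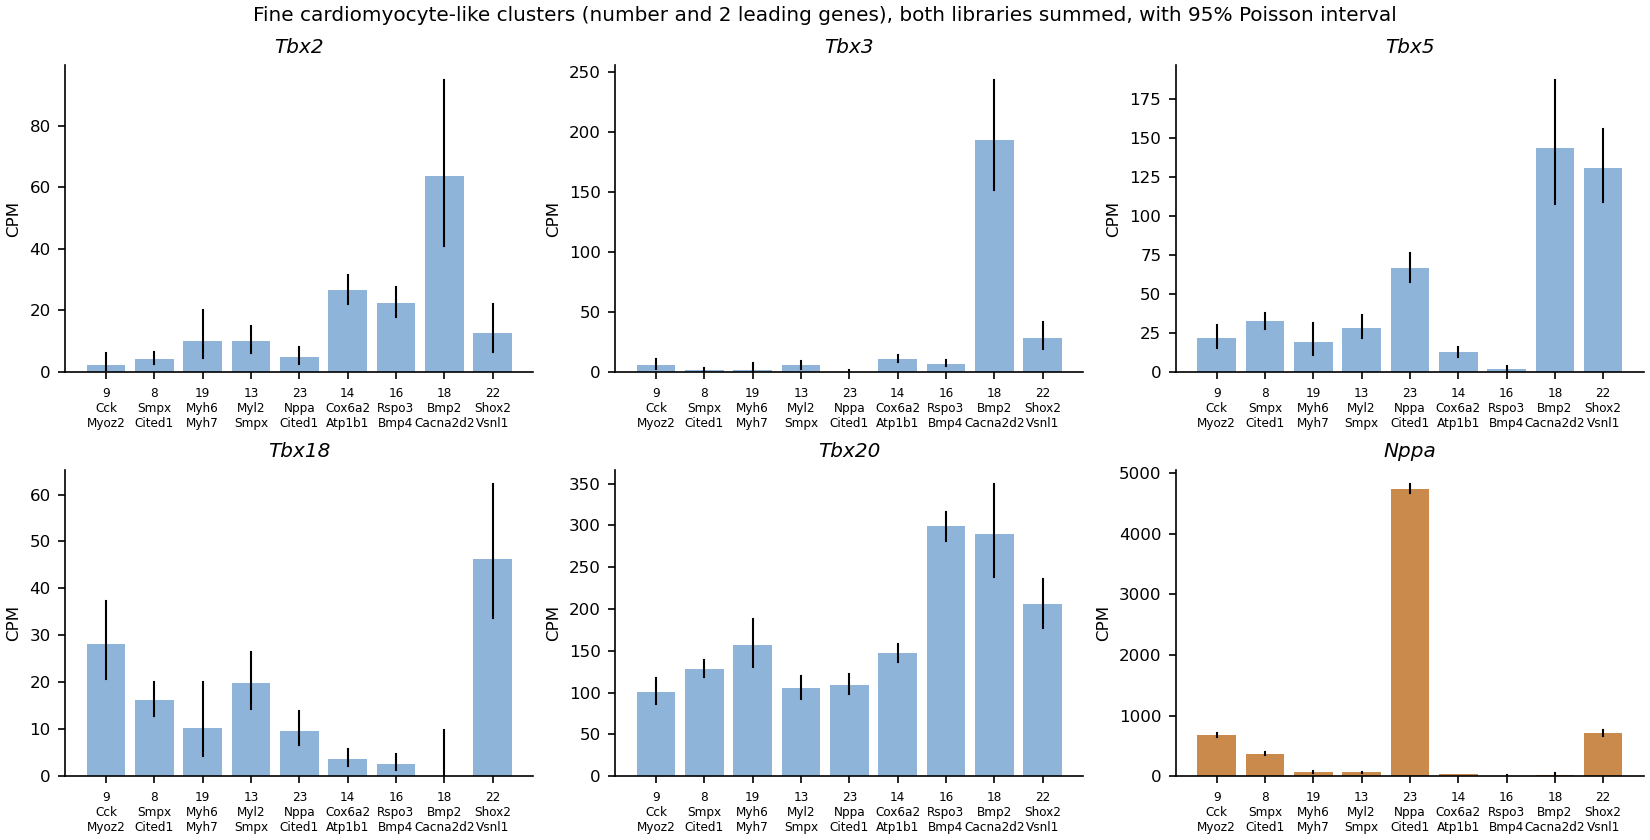
CPM of 5 T-box factors and of Nppa in 9 fine cardiomyocyte-like clusters, both libraries summed, with bars for CPM and lines for the 95% exact Poisson interval (counting error only); cluster numbers are given with 2 leading genes. Tbx3 reaches 194 CPM in the Bmp2-led cluster 18, and Nppa reaches 4743 CPM in cluster 23.

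Between the single-cell libraries, Tbx20 was lower in the library labelled F/F in 9 of the 10 clusters outside blood that held it. The lowest ratio was in cluster 15, from 281 to 207 CPM (ratio 0.736, 95% interval 0.580 to 0.937, conditional on the total count and covering counting error only). In cluster 2 it went from 322 to 239 CPM (0.740, 0.645 to 0.850), in cluster 12 from 311 to 231 CPM (0.745, 0.664 to 0.836) and in cluster 6 from 141 to 115.3 CPM (0.819, 0.708 to 0.949). The cushion clusters 3 and 10 had 0.829 (0.761 to 0.903) and 0.877 (0.801 to 0.961). Intervals that include 1 belong to clusters 5 (0.927), 11 (0.820), 13 (0.936) and 14, the cluster above 1 (1.15, 0.790 to 1.68).
A ratio below 1 in at least 9 of those 10 clusters was found for 10.9% of the 1521 genes with at least 100 UMIs in each cluster. Over all cells outside the erythroid-like clusters Tbx20 stood at 189 and 157 CPM (0.832, 0.798 to 0.866) at the 12.8th percentile of all gene ratios, while in erythroid-like cells, the background, it was higher in the library labelled F/F (3.48 and 6.80 CPM). None of the 7 to 10 clusters that could be matched changed side under 6 other settings of the cell filters, clustering and counting. Hand2, the gene beside Hand2os1, stood at 77.5 and 121 CPM over the same cells. There is no replicate of either genotype, so a difference between these 2 libraries cannot be told apart from one between genotypes. In the bulk E11.5 hearts, which compare F/F with F/+ and not with +/+, Tbx20 was higher in F/F, as given above. The Hand2os1 counts, 1 UMI in the library labelled +/+ and 9 in the one labelled F/F, go against the single-cell labels. With exchanged labels every ratio here would change side, and the percentile with it. Tbx20 over all cells outside the erythroid-like clusters would then go the same way as in bulk. Whether the labels were exchanged was not tested.

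The other members are given where, outside the erythroid-like clusters, the interval of the ratio left out 1. Tbx5 in cluster 5 and Tbx3 in cluster 15 are added. The values are thus picked by their interval and carry no test between genotypes. Of 30 pairs of a member and a cluster with at least 40 UMIs, 20 had a ratio below 1. Over all cells outside the erythroid-like clusters Tbx2 was 7.18 and 9.10 CPM in the libraries labelled +/+ and F/F (ratio 1.27, 1.04 to 1.54), and Tbx1 rested on 9 and 28 UMIs (2.33, 1.07 to 5.61). Tbx18 in the epicardial-like cluster had a ratio of 0.849 (0.783 to 0.921), and it went from 19.3 to 9.06 CPM in cluster 10 (0.469, 0.290 to 0.744) and from 37.2 to 17.4 CPM in cluster 13 (0.468, 0.242 to 0.865), each on under 100 UMIs. Tbx1 in cluster 13 had 1 and 8 UMIs, and Tbx2 in cluster 15 had a ratio of 0.442 (0.217 to 0.900). Tbx5 went from 24.8 to 9.80 CPM in cluster 13 (0.395, 0.162 to 0.880), on 24 and 9 UMIs. It had a ratio of 0.698 (0.511 to 0.957) in cluster 15 and in cluster 5 of 1.04 (0.860 to 1.27). In the ventricular cluster 6 Tbx5 went from 26.4 to 12.2 CPM (0.462, 0.313 to 0.684). In the fine group led by Cox6a2 (88 and 247 cells) Tbx5 was 15.9 CPM (9.96 to 24.1) and 11.6 CPM (8.39 to 15.6), and in the fine group led by Cck and Myoz2 (58 and 72 cells) 29.8 CPM (19.1 to 44.3) and 14.4 CPM (7.66 to 24.6), with intervals that overlap in both.
Tbx3 in cluster 15 had a ratio of 1.19 (0.758 to 1.93) and moved to 3.18 with at least 1000 genes per barcode.

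**Figure D5:**
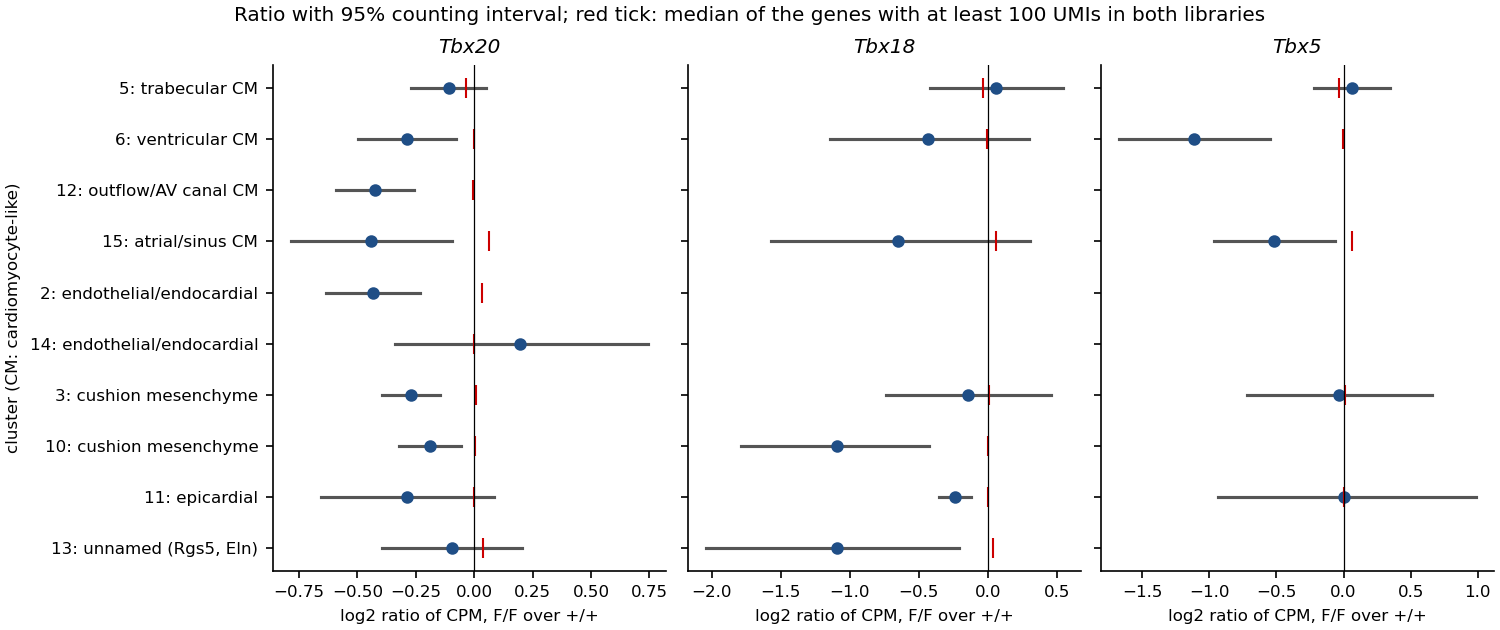
Log2 ratio of CPM, library labelled F/F over library labelled +/+, for Tbx20, Tbx18 and Tbx5 in each cluster, with points for the ratio, lines for the 95% interval (counting error only) and red ticks for the median of genes with at least 100 UMIs in both libraries. Tbx20 lies below 0 in 9 of 10 clusters outside blood, and its interval leaves out 0 in clusters 2, 3, 6, 10, 12 and 15.

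Genes with the most similar pattern were named by Pearson's r of log2(CPM + 1) over 32 points, 16 clusters in each of 2 libraries, among 6953 genes; points share libraries and cells, so r is a description. For Tbx20 they were Vcan (r = 0.98), which encodes the cushion proteoglycan versican, Tgfb1i1 (0.97) and Ltbp1 (0.97). For Tbx18 they were Wt1 (0.88), Gucy1a3 (0.83) and Kcne1l (0.83), and for Tbx5 Aldh1b1 (0.86), Fign (0.85) and Magi1 (0.85). Tbx3 was nearest to Msx2 (0.94), Bmp2 (0.93) and Rspo3 (0.88), and Tbx2 to Msx2 (0.92), Ppp1r14c (0.91) and Atp1b1 (0.90). Tbx1 was nearest to Isl1 (0.81), a second heart field factor, Eln (0.78) and 0610011F06Rik (0.74). Tbx1, Tbx2 and Tbx3 average under 10 CPM, so their values rest on few UMIs. Among the members the pair most alike was Tbx2 and Tbx3 (0.87).

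The 11 other T-box genes were low or listed at 0 in the bulk libraries, apart from Tbx4 in E11.5 F/+ replicate 1, given above. Tbx19 and Tbx22 were listed at 0 in all 25, and Eomes, T, Tbr1, Tbx10, Tbx15 and Tbx21 stayed under 1 FPKM. Mga, a widely expressed T-box protein that also binds Max, ranged from 0.16 to 2.17 FPKM, and Tbx6 from 0 to 3.61 FPKM with its highest value in 8-week D/D replicate 6. Tbx4 passed 1 FPKM in E11.5 F/+ replicates 1 and 2 and in no other library. A value of 0 in this table means that the gene is listed at 0, since no depth is given.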

How the data were processed

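Bulk polyA RNA-seq values are FPKM as deposited by the authors; the table does not name its unit, which was inferred from the values. Per the submitters' processing notes, TopHat2 2.0.11, CASAVA and mm9 are named for the bulk libraries and Cell Ranger and mm10 for the single-cell libraries. Single-cell values are deposited UMI counts per gene and barcode, with the library given by the barcode suffix. The 6 members and the gene lists were chosen with earlier results of these data known.

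FPKM were tested as log2(FPKM + 1) with limma 3.58.1 in R 4.3.3 (intensity trend, mean FPKM of 1 or more per gene, Benjamini-Hochberg over all genes, threshold 0.05), and single values with exact permutation tests. Of the bulk table, 24025 genes were kept after identical repeated lines were collapsed and 1 gene with a blank cell was dropped. Named list genes are the 3 with the highest mean in each list, plus members past the threshold. The values of 1 list gene are not reported here. The limma step was tested on simulated data: for a true log2 change of 1 it recovered 25% of the genes in the E11.5 genotype comparison, 67% at E16.5 and 76% for 8-week D/D against control.

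Barcodes needed 500 detected genes, and the highest Scrublet scores were removed as doublets (52 and 96 cells, at 0.8% per 1000 barcodes, because the automatic threshold called only 22). Clusters came from scanpy 1.11.5 (2000 variable genes without 14 T-box genes, 30 components, 15 neighbours, Leiden resolution 1). Fine clusters used resolution 2, chosen after seeing the data. Intervals are 95% exact Poisson or Clopper-Pearson and cover counting error only. With 1 library per genotype there was no single-cell test. Alternatives covered the pseudocount, filter, replicate block, a joint fit, scaling, a Y-linked covariate, array weights, leaving out each replicate, cell filters, doublets, resolution and thinning.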

Additional observations from a re-analysis of the deposited data

How the results depend on the processing

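The count of genes called was 1 in each of the E11.5, E16.5 and interaction comparisons. At E11.5 it was 2 with the replicate block, 24 with all libraries in 1 fit, 2 with the Y-linked covariate, 19 with array weights, and 1 to 2 when each replicate was left out. At E16.5 it was 2 with a pseudocount of 0.1, 3 with the Y-linked covariate, 2 with array weights and 0 to 2 when each replicate was left out. For the interaction it was 2 with a pseudocount of 0.1, 3 without a filter, 6 in 1 fit, 21 with array weights, 55 without E11.5 F/+ replicates 1 and 2, and 1 to 9 when each replicate was left out. Leaving out replicates 1 and 2, chosen after seeing the data, leaves 1 F/+ sample that is assumed to vary like the other groups.

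Directions turned for members whose difference was small or rested on those libraries, and the cause was not tested. Without E11.5 F/+ replicates 1 and 2 the log2 difference was 0.99 for Tbx3 and -0.15 for Tbx18 at E11.5, 0.094 for Tbx3 between stages, and -0.049 for Tbx2 in the interaction. Tbx5 at E11.5 was -0.0062 with median-ratio scaling, -0.011 with upper-quartile scaling and -0.056 with array weights. For D/D against control the replicate block gave -0.20 for Tbx2, -0.0049 for Tbx3, -0.098 for Tbx5 and 0.041 for Tbx20, and array weights gave -0.10 for Tbx2, -0.061 for Tbx5 and 0.031 for Tbx20. When each replicate was left out, E11.5 differences ran from -0.94 to 0.17 for Tbx3, -0.19 to 0.16 for Tbx5 and -0.0015 to 0.34 for Tbx18. At E16.5 they ran from -0.021 to 0.17 for Tbx5 and -0.13 to 0.019 for Tbx20. For D/D against control they ran from -0.12 to 0.23 for Tbx2, -0.020 to 0.32 for Tbx3, -0.060 to 0.17 for Tbx5 and -0.13 to 0.014 for Tbx20.

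Replicate numbers did not pair the samples (same-number correlations from -0.0356 to 0.0821 between F/+ and F/F at E11.5 and from -0.435 to 0.0420 at E16.5; at 8 weeks from -0.107 to 0.527 between +/+ and D/D, and 0.363 and -0.426 between D/+ and D/D), so the block stands only here. Besides the count it moved, it changed the stage calls of Tbx3 (adjusted p 0.0430 between E11.5 and E16.5) and Tbx2 (0.0492 between E16.5 and 8 weeks). In the single cells, cluster 6 at 1000 genes per barcode and clusters 6, 13 and 14 at Leiden resolution 0.5 had no match. Bulk depth is unknown, and Tbx1, Tbx2 and Tbx3 rest on few UMIs.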
